A study of Mus musculus with 32 samples.

Results

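Voltage-gated potassium (Kv) channel pore subunits were followed in the cortex of S100a10 bacTRAP mice. Gene rows were taken by name, from the Kcna, Kcnb, Kcnc, Kcnd, Kcnf, Kcng, Kcnh, Kcnq, Kcns and Kcnv families, and auxiliary subunits were left to a separate list. Of 40 matching rows, 37 had a summed count of 100 or more over the 32 libraries and were kept, out of 24062 genes in all. The rows left out were Kcna7, Kcna10 and Kcnv2, with 19, 60 and 46 counts. The 37 members fell into 6 Kv1 (Shaker), 2 Kv2 (Shab), 4 Kv3 (Shaw), 3 Kv4 (Shal), 5 Kv7, 8 Kv10 to Kv12 (EAG) and 9 modifier subunits.

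Kv channels are tetramers that open on depolarization and let potassium out of the cell, and the subunits in a tetramer set its threshold, speed and place on the neuron. Kv1 channels act near threshold on axons, Kv2 channels give the delayed rectifier of the soma and proximal dendrites, Kv3 channels allow fast repetitive firing, Kv4 channels carry the transient A-type current of dendrites, and Kv7 channels carry the slow M-current. The modifier subunits (Kv5, Kv6, Kv8 and Kv9) make no channel alone and change the gating of Kv2 subunits they assemble with. Pyramidal neurons and fast-spiking interneurons of the cortex use different mixtures of these families.

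Every mouse carried EGFP-L10a, a tagged ribosomal protein, under S100a10 regulatory elements (strain Tg(S100a10-EGFP/Rpl10a)ES691Htz), so that controls and treated animals alike held the transgene. RNA bound to tagged ribosomes (TRAP) was compared with RNA of the whole cortex (input) in adult males that were given vehicle and group housed (Gh), given vehicle and single housed from weaning (Sh), single housed with fluoxetine, a serotonin reuptake inhibitor, at 0.167 g/L in the drinking water for 21 days (Sh + Flx), or given the same housing and drug and labelled anxious (Sh + Flx anxious). Each group had 4 TRAP and 4 input libraries, and each library pooled the cortices of 3 mice, so that p-values measure the spread between pools. Fluoxetine-treated mice were set apart by their open-field behaviour, and Sh + Flx holds those that were not anxious. The comparison of Sh + Flx anxious with Sh + Flx is thus one between mice sorted on an outcome and not between assigned treatments. Comparisons of either fluoxetine group with Sh or Gh also carry this sorting.

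Counts in genes ran from 9776244 to 64788703 in TRAP and from 19265435 to 34515281 in input libraries. Gh TRAP 2 and Gh TRAP 3 differed by little more than sampling noise, which alone gives a mean chi-square per gene of about 1 (theirs was 1.13), and were counted as 1 sample, so n = 3 for Gh TRAP. The next closest pair of replicates was Sh TRAP 1 and 4, at 2.17. S100a10 itself was at 52.7, 53.6 and 53.8 CPM (counts scaled to a common library size) in Gh TRAP and at 8.45, 11, 8.86 and 6.9 CPM in Gh input, a log2 difference of 2.60 (edgeR's quasi-likelihood test, adjusted p = 4.33e-08). Sh TRAP 2 and Sh TRAP 3 stood apart from Sh TRAP 1 and 4. Their S100a10 levels were 19.1 and 11.9 CPM against 54.2 and 59 CPM, and their levels of Malat1, a nuclear RNA, were 23800 and 43500 CPM against 5780 and 5910 CPM. Results that rest on them are given with and without them, and the fits without them keep Sh TRAP 1 and 4, the closely alike pair just named, as the Sh group. In each of the 4 input groups, libraries 1 and 4 and libraries 2 and 3 were the closest pairs. Their mean chi-square per gene was 5.29 to 10.01 within and 11.3 to 25.4 across pairs. The same pairs were closest in Gh TRAP (1.13 and 15.1 within, 17.7 to 33.5 across) and Sh TRAP (2.17 and 64.8, 134 to 407). So they were in Sh + Flx TRAP (23.5 and 35.1, 37.3 to 102). In Sh + Flx anxious TRAP libraries 2 and 3 were closest at 15.3, but 1 and 4 (46.3) were less alike than 1 and 2 (37.6). The labels name no batch. The main fits treat the libraries as independent, so p-values may be too small if those of a pair are not. The labels call the cells layer 5a S100a10 neurons. Of 8 layer 5 markers 3 were higher and 4 lower in Gh TRAP than in Gh input, all 7 meningeal fibroblast markers were higher, and 8 of 10 interneuron and 7 of 8 oligodendrocyte markers were lower. Of 10 endothelial and mural cell markers 7 were higher (summed level 126 to 155 CPM in TRAP and 30.2 to 41.7 CPM in input), of 7 microglia markers 2 were higher, and of 7 astrocyte markers 1 was higher (Gja1) and 2 lower (Aqp4 and Slc1a2). None of these lists held a gene at 0 in every library. Fewer cells of a type and less RNA per cell cannot be told apart in such bulk samples.

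Per kilobase of exon, Kcna2 was the most abundant pore subunit RNA on the ribosomes of Gh mice. It was at 28.7 ± 3.27 CPM per kb (SD, n = 3), above Kcna1 at 19.5 ± 0.386, Kcnh5 at 14.7 ± 1.61 and Kcnd2 at 11.5 ± 0.894 CPM per kb, all among the 5 highest members. Kcna1 and Kcna2 are axonal Kv1 subunits, Kcnh5 belongs to the EAG group and Kcnd2 carries A-type current. The lowest level was that of Kcnh6, at 0.0682 CPM per kb. The library ranges of neighbours in this order overlapped for 32 of 36 pairs, whereas those of Kcna1 and Kcnh5 and of Kcnh5 and Kcnd2 did not. The order depended on the gene models. With exon lengths from GENCODE in place of RefSeq, Kcna1 came first at 36.5 and Kcna2 second at 34.6 CPM per kb, and 4 of the 5 highest genes were shared. In Gh input the levels per kb were 44.6 ± 2.4 for Kcna2, 39.4 ± 1.64 for Kcna1, 17.9 ± 0.696 for Kcnd2 and 12.6 ± 0.824 for Kcnh5 (SD, n = 4).

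**Figure D1:**
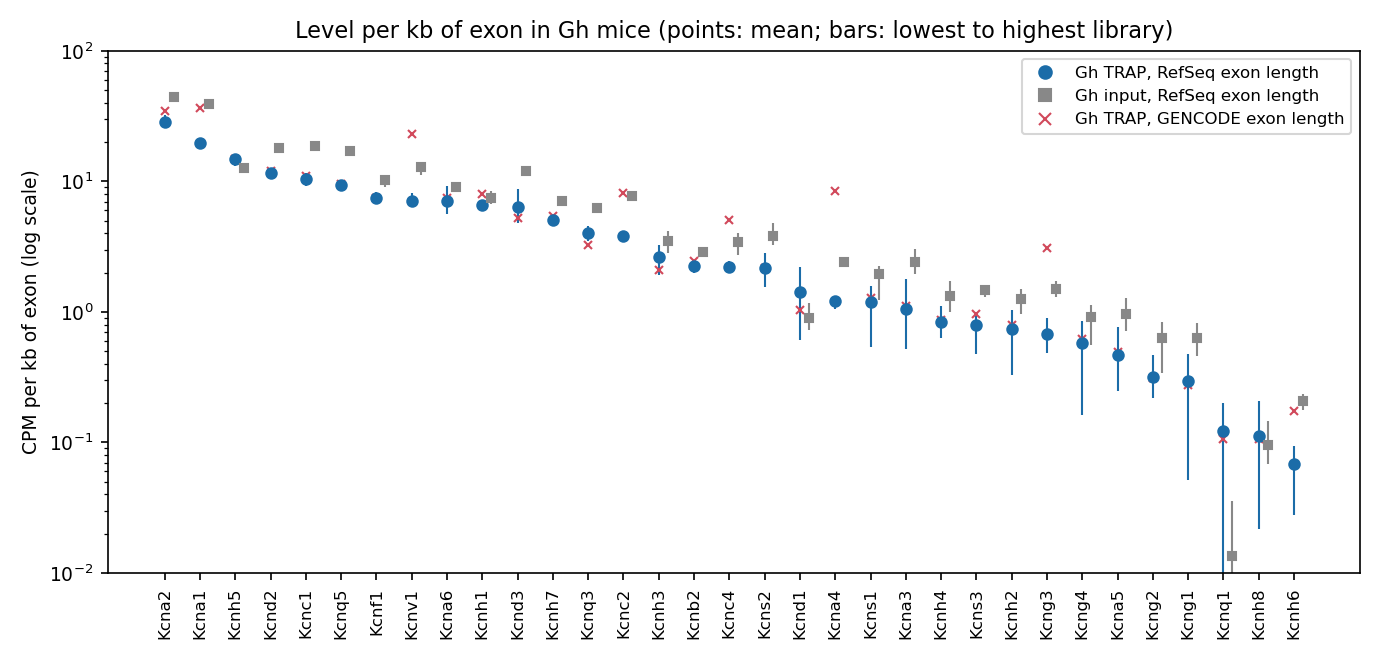
Level per kb of exon of 33 members in Gh mice, on a log axis in CPM per kb, ordered by the TRAP level (circles: Gh TRAP, n = 3; squares: Gh input, n = 4; bars: lowest to highest library; crosses: Gh TRAP with GENCODE lengths). TRAP levels fall from 28.7 for Kcna2 to 0.0682 for Kcnh6, and Kcnh5, unlike Kcna2, Kcna1 and Kcnd2, has a TRAP mean (14.7) above its input mean (12.6).

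The promoters of Kcnh5 and Kcnd2 are shown because these members stood next to each other in the order of TRAP levels and Kcnd2, but not Kcnh5, was called lower in TRAP than in input, as described next. The 250 bases before each annotated start are given 5′ to 3′ on the gene's strand from RefSeq (GRCm38.p6), with capitals marking the GC box GGGCGG. Kcnh5 lies on the minus strand, with the window at chr12:75177333-75177582, and Kcnd2 on the plus strand, with the window at chr6:21215096-21215345.
Kcnh5: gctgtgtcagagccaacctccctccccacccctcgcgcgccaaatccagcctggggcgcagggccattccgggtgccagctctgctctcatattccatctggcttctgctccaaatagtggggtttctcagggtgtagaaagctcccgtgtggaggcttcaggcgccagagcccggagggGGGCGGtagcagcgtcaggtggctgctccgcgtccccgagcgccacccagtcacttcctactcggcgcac
Kcnd2: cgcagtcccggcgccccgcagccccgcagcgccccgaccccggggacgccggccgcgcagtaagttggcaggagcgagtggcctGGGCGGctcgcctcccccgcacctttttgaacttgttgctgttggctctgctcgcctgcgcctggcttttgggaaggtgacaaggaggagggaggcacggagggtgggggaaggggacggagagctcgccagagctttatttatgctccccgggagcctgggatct
Each window holds 1 GC box, and GC makes up 65.6% of the bases for Kcnh5 and 68.8% for Kcnd2. Of the 37 members 23 matched 28 RefSeq promoters. GGGCGG on either strand was in 17 of these 28 windows (60.7%) and in 32.7% of all 32851 windows of this length, and the median GC content was 63.0% and 52.4%. CCAAT was in 25.0% of member and 33.8% of all windows, TATAAA in 0 and 12.4%, CACGTG in 3.57% and 6.02%, and TGACGTCA in 0 and 1.55%. These matches describe the letters and no factor's binding.

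Most Kv pore subunit RNAs were less abundant on the ribosomes of S100a10-expressing cells than in the whole cortex of Gh mice. Of 37 members 23 were lower and 0 higher in TRAP, beside 21.9% of all 17015 genes lower and 20.3% higher. The median log2 difference was -0.692 for the members and -0.0645 for all genes tested. The summed level of the members was 1825 ± 97.2 CPM in TRAP (SD, n = 3) and 2939 ± 153 CPM in input (n = 4). In 22 members every Gh TRAP library was below every Gh input library, as in 27.1% of all genes. Without Sh TRAP 2 and 3, 24 members were lower (22.8% of all genes) and 3 higher (26.5%), with a median of -0.602. These libraries enter through the shared estimate of spread, the gene filter and the scaling, all redone without them (17345 genes). Log2 differences can therefore shift although no Gh library was removed. The Sh TRAP libraries that remain are the closely alike pair 1 and 4, which enters the shared spread. Interneuron marker RNA was at a summed 614 to 684 CPM in Gh TRAP and 1373 to 1470 CPM in Gh input, and meningeal fibroblast marker RNA at 2102 to 2224 and 89.4 to 122 CPM. Nuclear RNA (5 RNAs, Malat1 among them) was at a summed 7186 to 10050 CPM in Gh TRAP and 53227 to 63377 CPM in Gh input. The part of these other cells and of nuclear RNA in the differences was not tested.

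**Figure D2:**
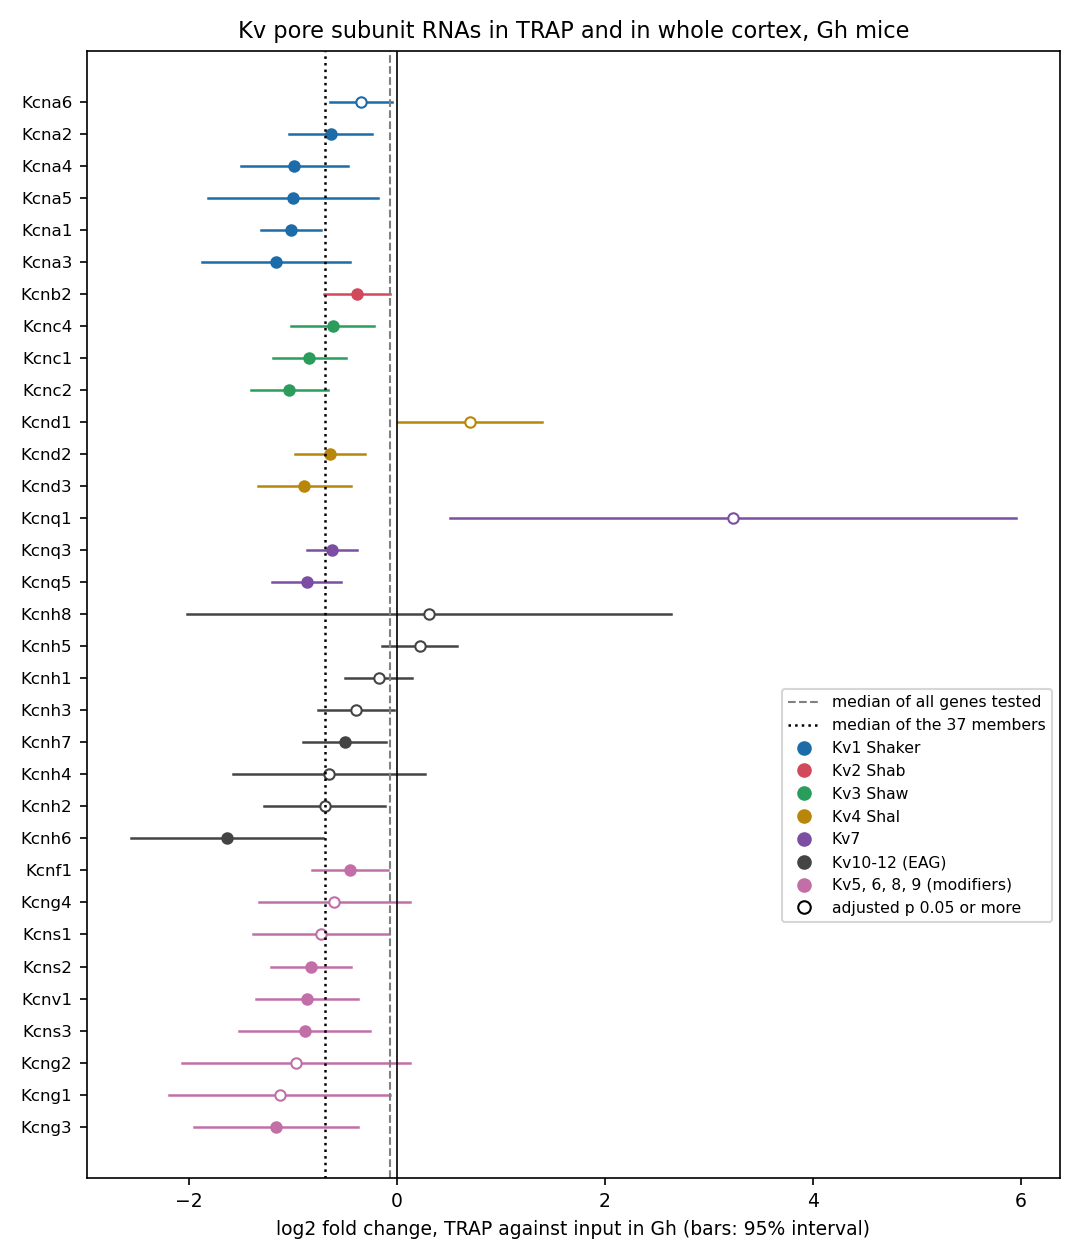
Log2 fold change of TRAP against input in Gh for 33 members, grouped by family (filled: adjusted p under 0.05; bars: 95% interval; lines: medians of all 37 members and of all genes). Filled points all lie left of 0, while Kcnh5, Kcnd1, Kcnh8 and Kcnq1 lie right of 0 and are open.

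Of the Kv1 genes, 5 of 6 were lower in TRAP. Kcna1 was at 177, 171 and 176 CPM in Gh TRAP and at 360, 333, 353 and 367 CPM in Gh input. The TRAP libraries were all near 49.4% of input, a log2 difference of -1.02 (SE 0.141, adjusted p = 5.51e-07). Kcna4, the A-type member of this family, was at 43, 43.1 and 35.6 CPM in TRAP and 82.2, 74.7, 80.1 and 83.2 CPM in input (log2 -0.98, SE 0.252, adjusted p = 0.00202). Kcna2 was at 396, 464 and 375 CPM in TRAP and 668, 602, 619 and 670 CPM in input (log2 -0.64, SE 0.194, adjusted p = 0.00851). Kcna3 (log2 -1.16) and Kcna5 (log2 -0.998) were lower too, and Kcna3 stayed under 6 CPM in every Gh library. Kcna6, which neighbours Kcna1 and Kcna5 on chromosome 6, was not called (log2 -0.34, adjusted p = 0.0588), with 34.8, 40.5 and 57.1 CPM in TRAP and 59.8, 53.8, 52 and 59 CPM in input.

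Of the Kv2 genes, Kcnb2 was lower (log2 -0.38, adjusted p = 0.0487). Among the Kv3 genes, Kcnc1 and Kcnc2 encode subunits of fast-spiking interneurons, and both were lower. Kcnc2 was at 57.4, 57.8 and 60.2 CPM in TRAP and 126, 115, 115 and 123 CPM in input (log2 -1.03, SE 0.181, adjusted p = 2.38e-05). Kcnc1 was at 91.6, 114 and 105 CPM against 198, 177, 178 and 189 CPM (log2 -0.84, SE 0.172, adjusted p = 1.92e-04). Kcnc4 was lower as well (log2 -0.61). No library of either fraction overlapped the other for Kcnc1 or Kcnc2.

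Among the Kv4 genes, Kcnd2 and Kcnd3 were lower. Kcnd2 was at 65.8, 56.3 and 61.7 CPM in TRAP and 98.5, 94.1, 90.4 and 97.7 CPM in input (log2 -0.64, SE 0.166, adjusted p = 0.00231). Kcnd3 was at 44.4, 67.9 and 37.6 CPM against 100, 88.4, 88.6 and 93.1 CPM (log2 -0.89, SE 0.218, adjusted p = 0.00135). Kcnd1 was weakly expressed, at 2.34, 5.63 and 8.36 CPM in TRAP and 2.79, 3.08, 3.42 and 4.46 CPM in input, and its log2 difference of 0.70 had an adjusted p of 0.0972, or 0.0459 without Sh TRAP 2 and 3.

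Of the Kv7 genes of the neuronal M-current, Kcnq3 and Kcnq5 were lower. Kcnq3 was at 41.6, 47.6 and 53.7 CPM in TRAP and 72.5, 73.1, 77.7 and 70.8 CPM in input (log2 -0.62, SE 0.118, adjusted p = 7.23e-05). Kcnq5 was at 68.4, 74.6 and 75.2 CPM against 132, 126, 127 and 145 CPM (log2 -0.86, SE 0.163, adjusted p = 6.11e-05). For both genes the fractions did not overlap. Kcnq1, known mainly from heart and epithelia, reached at most 0.713 CPM in Gh libraries and was not called (adjusted p = 0.0502, or 0.0340 higher in TRAP without Sh TRAP 2 and 3).

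The EAG group held the members closest to their input level. Kcnh5 was at 52.9, 60.5 and 65.9 CPM in Gh TRAP and at 53.4, 49.5, 54.8 and 47.6 CPM in Gh input. The fractions overlapped, and the log2 difference was 0.22 (95% interval -0.138 to 0.584, adjusted p = 0.327). Without Sh TRAP 2 and 3 it was 0.30 with an adjusted p of 0.0268, so Kcnh5 counted among the 3 members then higher. Kcnh1 was at 64.4, 56.2 and 55.6 CPM in TRAP and 74.5, 62.2, 60 and 67.6 CPM in input (log2 -0.17, 95% interval -0.493 to 0.15, adjusted p = 0.403). Kcnh6 was lower (log2 -1.63) at low levels, with 0.749, 0.852 and 0.251 CPM in TRAP and 2.13, 1.59, 1.81 and 1.97 CPM in input. Kcnh7 was lower too (log2 -0.50), and the other 6 of the 8 EAG genes were not called. The group made up 12.2 ± 0.852% of the members' summed CPM in Gh TRAP (n = 3) and 9.0 ± 0.0692% in Gh input (n = 4), while the Kv1 genes made up 36.9 ± 0.73% and 38.7 ± 0.342%.

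Of the 9 modifier genes, 5 were lower. Kcns2 was at 11.8, 15.7 and 8.64 CPM in TRAP and 26.7, 20.8, 18.2 and 19.6 CPM in input (log2 -0.82, SE 0.189, adjusted p = 6.89e-04). Kcng3, Kcns3, Kcnv1 and Kcnf1 differed by -1.16, -0.88, -0.86 and -0.45 on the log2 scale, with adjusted p of 0.0161, 0.0209, 0.00436 and 0.0418. Kcng1, Kcng2, Kcng4 and Kcns1 were not called.

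Over the mean of the 4 groups, 31 members were lower and 1 higher, beside 37.4% of all genes lower and 32.3% higher, and the median was -0.778 against -0.0747 for all genes. With Sh TRAP 2 and 3 left out, 32 were lower (37.4%) and 1 higher (36.8%). The smallest p belonged to Kcnq3 (log2 -0.86, SE 0.0558, adjusted p = 5.25e-15), followed by Kcna1 (log2 -0.99) and Kcnc2 (log2 -1.10). The higher gene was Kcnq1 (log2 1.44, adjusted p = 0.0411), at no more than 1.21 CPM in any library. Kcnh5 was near equal in both fractions (log2 0.05, 95% interval -0.118 to 0.225), and Kcnd1, Kcng2 and Kcnh8 were not called. These comparisons include the Gh libraries already used above.

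The partners of the pore subunits were lower as well. Of 22 tested auxiliary and clustering genes, 15 were lower and 2 higher in Gh TRAP, beside 21.9% and 20.3% of all genes. Their median log2 difference was -0.596. Kcnab1, a Kv1 beta subunit, differed by -0.98, Dpp10, a Kv4 partner, by -0.94, and the scaffold gene Dlg2 by -0.97, whereas Kcne4 was higher by 3.95 (adjusted p = 1.15e-08). Of 32 tested pore genes of other potassium channels, 16 were lower and 4 higher, with a median of -0.63. Among these, Kcnn2 of the small-conductance calcium-activated channels was lower (log2 -1.37), and Kcnj13 (3.52), Kcnk2 (1.25) and Kcnk5 (6.0) were higher. Summed meningeal fibroblast markers were at 2102 to 2224 CPM in Gh TRAP and 89.4 to 122 CPM in Gh input. Endothelial and mural markers were at 126 to 155 and 30.2 to 41.7 CPM. The part of these cells in the higher genes, Kcne4 included, was not tested.

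No pore subunit RNA passed the test between Sh and Gh in TRAP, and neither did any other gene (0% of 16754). At an unadjusted p under 0.05 there were 6 members and 2634 genes, and DESeq2 also called 0 members. Kcnc1 and Kcna4 were among the members with the smallest p-values, and neither passed. Kcnc1 was at 125, 177, 272 and 120 CPM in Sh TRAP against 91.6, 114 and 105 CPM in Gh TRAP (log2 0.75, SE 0.238, adjusted p = 0.208). All 4 Sh libraries were above the 3 Gh samples, as for 6.46% of all genes. Without Sh TRAP 2 and 3 the log2 difference was 0.22 (adjusted p = 0.539). Kcna4 was at 40.6, 71.6, 142 and 44.1 CPM in Sh TRAP against 43, 43.1 and 35.6 CPM in Gh TRAP (log2 0.88, adjusted p = 0.230), a difference of 0.04 (adjusted p = 0.943) without the 2 libraries.

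In both genes the highest Sh values were those of Sh TRAP 2 and 3. The summed level of the members was 1682, 2801, 3759 and 1658 CPM in Sh TRAP 1 to 4. Kcna2 followed it at 348, 590, 932 and 357 CPM, and Kcnh7, an ERG-type channel gene of the EAG group, at 65.5, 115, 180 and 65.3 CPM. The median log2 difference of the members, Sh against Gh, was 0.333 with all libraries and -0.17 without Sh TRAP 2 and 3, and the number of members above 0 went from 30 to 12 of 37. In Sh TRAP 2 and 3 the summed interneuron markers were at 1183 and 1374 CPM against 682 and 671 CPM in Sh TRAP 1 and 4, the oligodendrocyte markers at 1085 and 1509 against 960 and 1002 CPM, and the meningeal markers at 950 and 1200 against 2941 and 2812 CPM. The part of these cells, and of the nuclear RNA given above, in the members' levels was not tested.

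**Figure D3:**
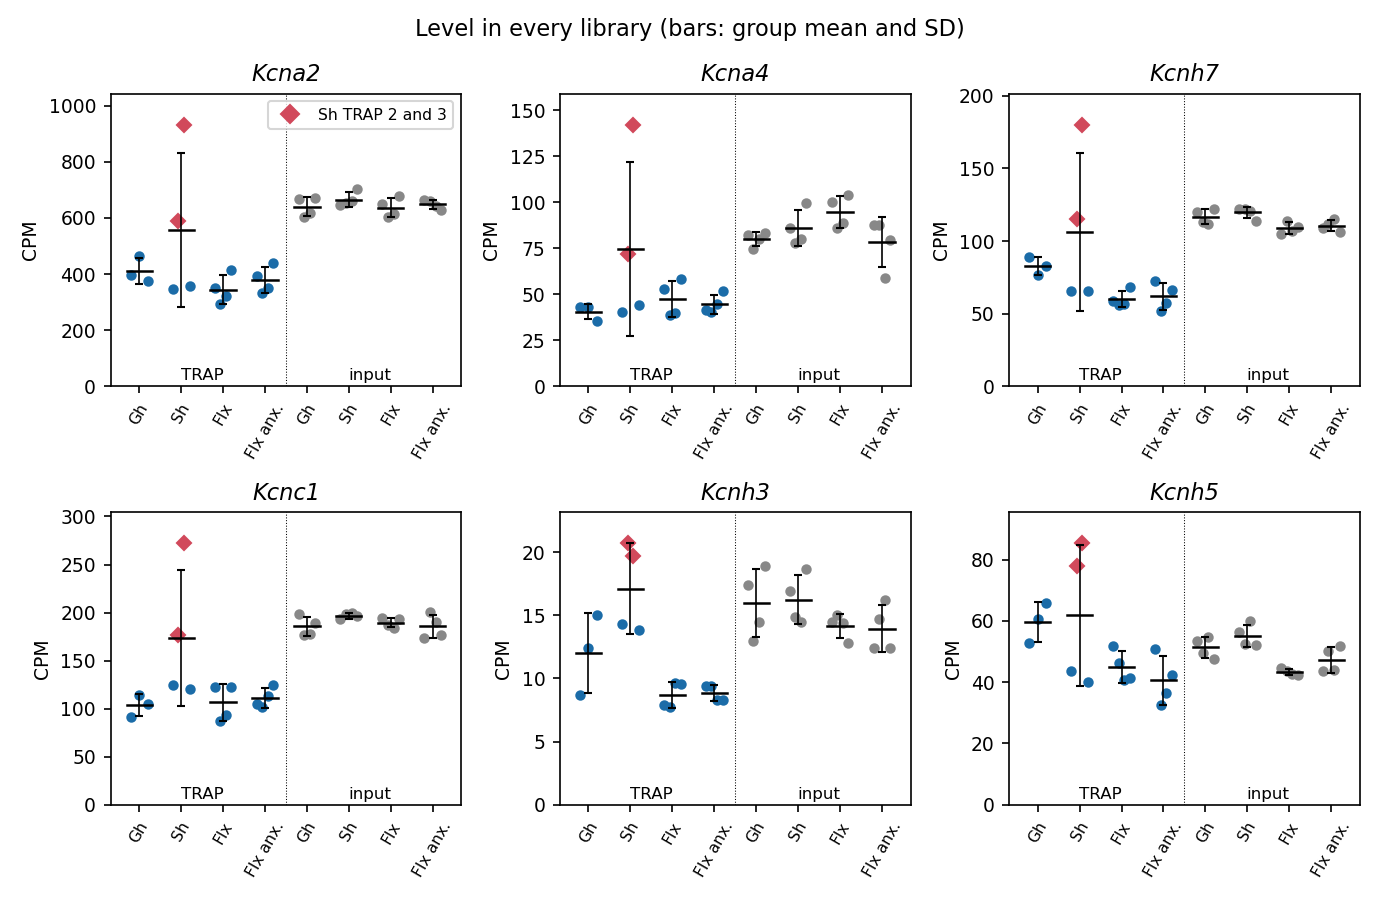
CPM of Kcna2, Kcna4, Kcnh7, Kcnc1, Kcnh3 and Kcnh5 in every TRAP and input library by group (bars: group mean and SD; diamonds: Sh TRAP 2 and 3; Gh TRAP n = 3, others n = 4). For Kcna2 the diamonds stand at 590 and 932 CPM, above every other TRAP library, and the remaining Sh TRAP libraries are at 348 and 357 CPM.

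Between Sh + Flx and Sh in TRAP, 4 members were lower and 0 higher, beside 3.81% of all genes lower. Among them were Kcnh3, Kcnh4 and Kcnh7, and the median log2 difference of the members was -0.472. Leaving out Sh TRAP 2 and 3 left 0 members called, beside 0.912% of genes lower, and the median was 0.0224. At an unadjusted p under 0.05, 4 members and 3131 genes then remained, against 15 and 4472 with all libraries. Leaving out Sh TRAP 1 or 4 alone raised the calls to 12 and 13, and leaving out any other single library of the 2 groups lowered them to 0 or 1. Kcnh3 and Kcnh4 encode ELK-type (Kv12) channels of the forebrain. Kcnh3 was at 7.88, 7.77, 9.64 and 9.56 CPM in Sh + Flx TRAP and at 14.3, 20.7, 19.7 and 13.8 CPM in Sh TRAP. The groups did not overlap, with all libraries lower as for 7.42% of all genes. The log2 difference was -0.98 (SE 0.209, adjusted p = 0.0177), and without the 2 libraries it was -0.69 (SE 0.221, adjusted p = 0.101).

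Kcnh4 and Kcnh7 rested on Sh TRAP 2 and 3. Kcnh4 was at 2.76, 2.09, 2.07 and 0.938 CPM in Sh + Flx TRAP and at 2.41, 16.8, 8.95 and 2.68 CPM in Sh TRAP, so that the 2 high libraries set its log2 difference of -1.99 (adjusted p = 0.0418), which was -0.38 without them (adjusted p = 0.733). Kcnh7 was at 58.5, 56.2, 56.9 and 68 CPM in Sh + Flx TRAP, and its log2 difference went from -0.85 (adjusted p = 0.0499) to -0.12 (adjusted p = 0.674).

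**Figure D4:**
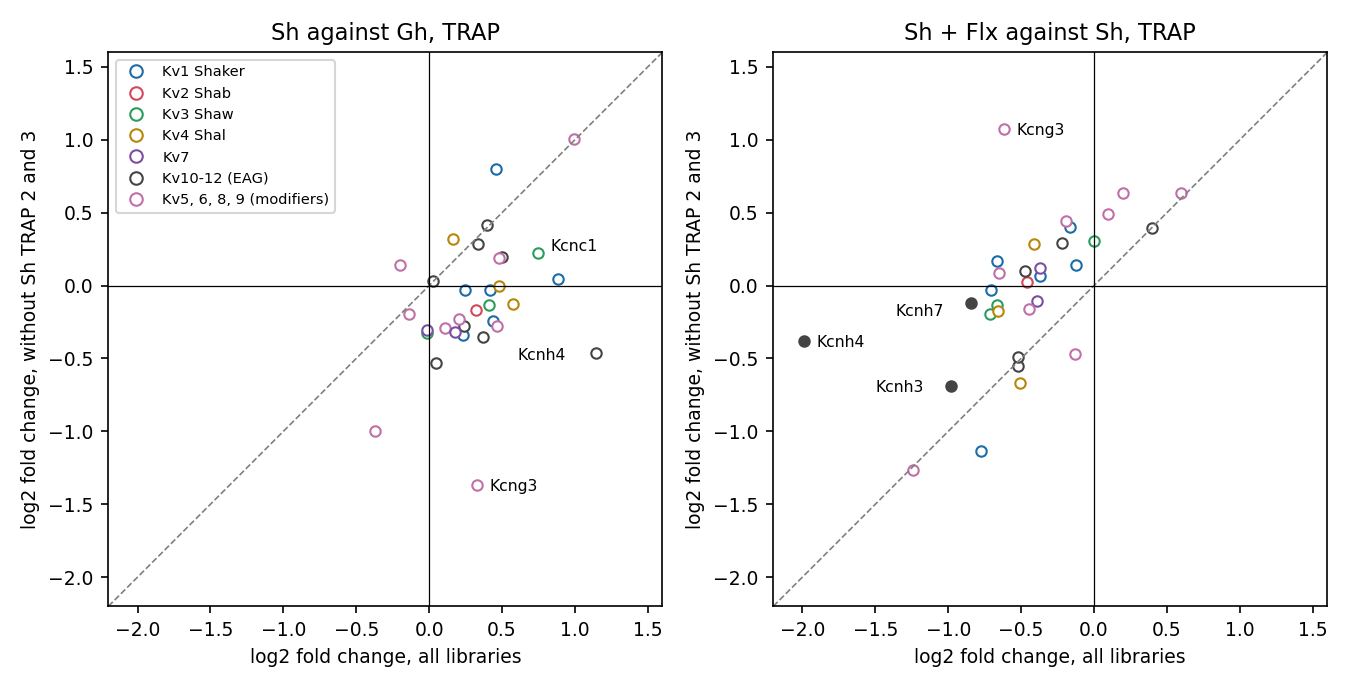
Log2 fold change of members in TRAP with all libraries (x axis) and without Sh TRAP 2 and 3 (y axis), for Sh against Gh and for Sh + Flx against Sh (filled: adjusted p under 0.05 with all libraries; dashed line: equal values; Kcnq1 left out). Most members lie off the dashed line, on the side of smaller or opposite values, and Kcnh3 stays at -0.69 on the y axis of the second panel.

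The comparison of Sh + Flx anxious with Sh in TRAP shares its Sh libraries with the one above, and 4 members were called lower, again with Kcnh3, Kcnh4 and Kcnh7 among them, beside 6.14% of all genes. Kcnh3 was at 9.4, 9.43, 8.31 and 8.29 CPM in Sh + Flx anxious TRAP (log2 -0.95, SE 0.209, adjusted p = 0.0117). It was below all 4 Sh libraries, as were 8.77% of all genes. Kcnh4, at 1.23, 2.74, 0.977 and 1.4 CPM, differed by -2.29 (adjusted p = 0.0188) and Kcnh7, at 72.2, 51.7, 57.1 and 66.4 CPM, by -0.79 (adjusted p = 0.0493). When Sh TRAP 2 and 3 were left out, 0 members were called, beside 1.89% of genes lower. The log2 differences were then -0.66 for Kcnh3, -0.68 for Kcnh4 and -0.07 for Kcnh7, with adjusted p from 0.0882 to 0.803, and 3 members had an unadjusted p under 0.05. With Sh TRAP 1 or 4 alone left out 12 and 11 members were called, and with any other single library left out 1 or 2.

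Among the auxiliary and clustering genes in the same comparisons, 1 was higher and 3 lower in Sh + Flx than in Sh, and 2 were higher and 2 lower in Sh + Flx anxious. Of all genes, 3.81% were lower in Sh + Flx and 6.14% in Sh + Flx anxious. The shares of all genes higher are not reported here, so the higher counts have no background beside them. Kcnip3, a calcium sensor that binds Kv4 channels, was higher in both (log2 0.47, adjusted p = 0.0476, and log2 0.89, adjusted p = 0.00250). Cntn2, a partner of axonal Kv1 channels, differed by -1.11 and -1.02, and Ank3, which anchors channels at the axon initial segment, by -1.12 and -1.27. In the fit without Sh TRAP 2 and 3 the values for Sh + Flx and Sh + Flx anxious were 0.42 and 0.835 for Kcnip3, -0.45 and -0.36 for Cntn2 and -0.10 and -0.24 for Ank3, and 0 auxiliary genes were called in Sh + Flx and 2 (both higher) in Sh + Flx anxious. Of the other potassium channel pore genes 6 and 5 of 33 were lower. Without the 2 libraries 2 and 1 were lower, beside 0.912% and 1.89% of all genes, and 1 was higher in Sh + Flx anxious.

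Against Gh, the pore subunits in TRAP of fluoxetine-treated mice did not pass the test. For Sh + Flx against Gh 0 members were called, as were 0.00597% of all genes, with 2 members and 1029 genes at an unadjusted p under 0.05 and 0 members by DESeq2. The smallest p-values belonged to Kcnq3, at 40.2, 34.8, 33.1 and 36.8 CPM (log2 -0.41, adjusted p = 0.737), Kcnh3 (log2 -0.48, adjusted p = 0.808) and Kcnh5 (log2 -0.42, adjusted p = 0.899). For Sh + Flx anxious against Gh 0 members were called (0.0716% of genes), with 1 member and 1282 genes at an unadjusted p under 0.05 and 0 members by DESeq2. Kcnh5 had the smallest p, at 50.9, 32.5, 36.5 and 42.5 CPM against 52.9, 60.5 and 65.9 CPM in Gh TRAP. The groups did not overlap, with all libraries lower as for 5.95% of all genes, and the log2 difference of -0.56 (SE 0.237) had an adjusted p of 0.582. Without Sh TRAP 2 and 3, which lowers the shared spread, it was -0.57 (SE 0.144) and passed with an adjusted p of 0.0421, the 1 member so called beside 0.906% of genes lower. Kcnh3 (log2 -0.45) and Kcnh4 (log2 -1.14) came next and did not pass.

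No pore subunit passed between the fluoxetine groups in TRAP. Between Sh + Flx anxious and Sh + Flx 0 members and 0% of genes were called, with 2 members and 724 genes at an unadjusted p under 0.05 and 0 members by DESeq2. Kcnf1 (log2 -0.45, SE 0.213) and Kcnh2 (log2 0.53, SE 0.334) were among those with the smallest p, each with an adjusted p of 0.9999. Kcnf1 was at 35, 27.7, 37.2 and 20.1 CPM in Sh + Flx anxious TRAP and 48.2, 38.2, 38.3 and 40.8 CPM in Sh + Flx TRAP. The groups had no overlap, with all libraries lower as for 2.21% of all genes.

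In the whole cortex, no pore subunit passed the test for single housing. Between Sh and Gh input 0 of 36 tested members were called, as were 0.0829% of 15690 genes, with 5 members and 1765 genes at an unadjusted p under 0.05 and 0 members by DESeq2. Kcnd2 had the smallest p, at 117, 107, 100 and 120 CPM in Sh input against 98.5, 94.1, 90.4 and 97.7 CPM in Gh input (log2 0.23, SE 0.079, adjusted p = 0.262). Kcnq5 was also among the 3 smallest (log2 0.16, adjusted p = 0.382). The summed level of the members was 2939 ± 153 CPM in Gh, 3120 ± 44.3 CPM in Sh, 3111 ± 89.3 CPM in Sh + Flx and 3143 ± 113 CPM in Sh + Flx anxious input (SD, n = 4 each).

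Fluoxetine-treated mice differed from Sh mice in a few members of the whole cortex. In Sh + Flx, Kcnh1 and Kcna6 were higher and Kcnh5 lower, beside 1.82% of all genes higher and 0.797% lower. Kcnh1, the gene of the EAG channel Kv10.1, was at 86.2, 75.1, 79 and 76.7 CPM in Sh + Flx input against 67, 61.5, 67.5 and 58 CPM in Sh input (log2 0.31, SE 0.0747, adjusted p = 0.0182). Kcna6 was at 67, 68.2, 70.4 and 74 CPM against 58, 56.5, 59.8 and 56.3 CPM (log2 0.27, SE 0.0679, adjusted p = 0.0253). Kcnh5, the close relative of Kcnh1, was at 44.5, 43.8, 42.7 and 42.2 CPM against 56.3, 52.5, 59.8 and 52.1 CPM (log2 -0.36, SE 0.0756, adjusted p = 0.00598). None of these 3 genes overlapped between the groups, so that the pair of EAG genes moved in opposite directions. Of all genes, 5.44% were higher and 3.57% lower without overlap. Leaving out Sh input 2 or Sh input 4 brought the 3 calls to 1. With libraries 1 and 4 summed and 2 and 3 summed, which leaves 2 samples in each input group, 0 members were called and 7 had an unadjusted p under 0.05.

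In Sh + Flx anxious, 4 members were higher and 2 lower than in Sh input, beside 3.98% and 2.87% of all genes. Kcnh1 was at 83, 90.7, 91.7 and 82.9 CPM (log2 0.45, SE 0.0747, adjusted p = 1.70e-04) and Kcna6 at 71.1, 74.3, 75.3 and 81.9 CPM (log2 0.39, SE 0.0679, adjusted p = 3.17e-04). Each Sh + Flx anxious library was above each Sh library for both genes, as for 6.4% of all genes. Kcng4, a Kv6 modifier, was at 7.63, 7.43, 6.09 and 6.23 CPM against 5.03, 3.9, 3.63 and 2.52 CPM (log2 0.84, SE 0.213, adjusted p = 0.0118). The lower genes were Kcng2, another Kv6 modifier, at 0.605, 0.556, 1.15 and 0.936 CPM against 1.81, 1.82, 2.51 and 2.3 CPM (log2 -1.37, SE 0.345, adjusted p = 0.0118), and Kcnh4, at 4.35, 4.91, 4.35 and 3.24 CPM against 7.04, 6.3, 5.75 and 7.29 CPM (log2 -0.66, SE 0.205, adjusted p = 0.0493). Kcnh5 was at 43.6, 50.2, 43.9 and 51.7 CPM and did not pass (log2 -0.23, adjusted p = 0.0713). With the pairs summed 3 of the 6 calls remained, those of Kcnh1, Kcna6 and Kcng2.

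**Figure D5:**
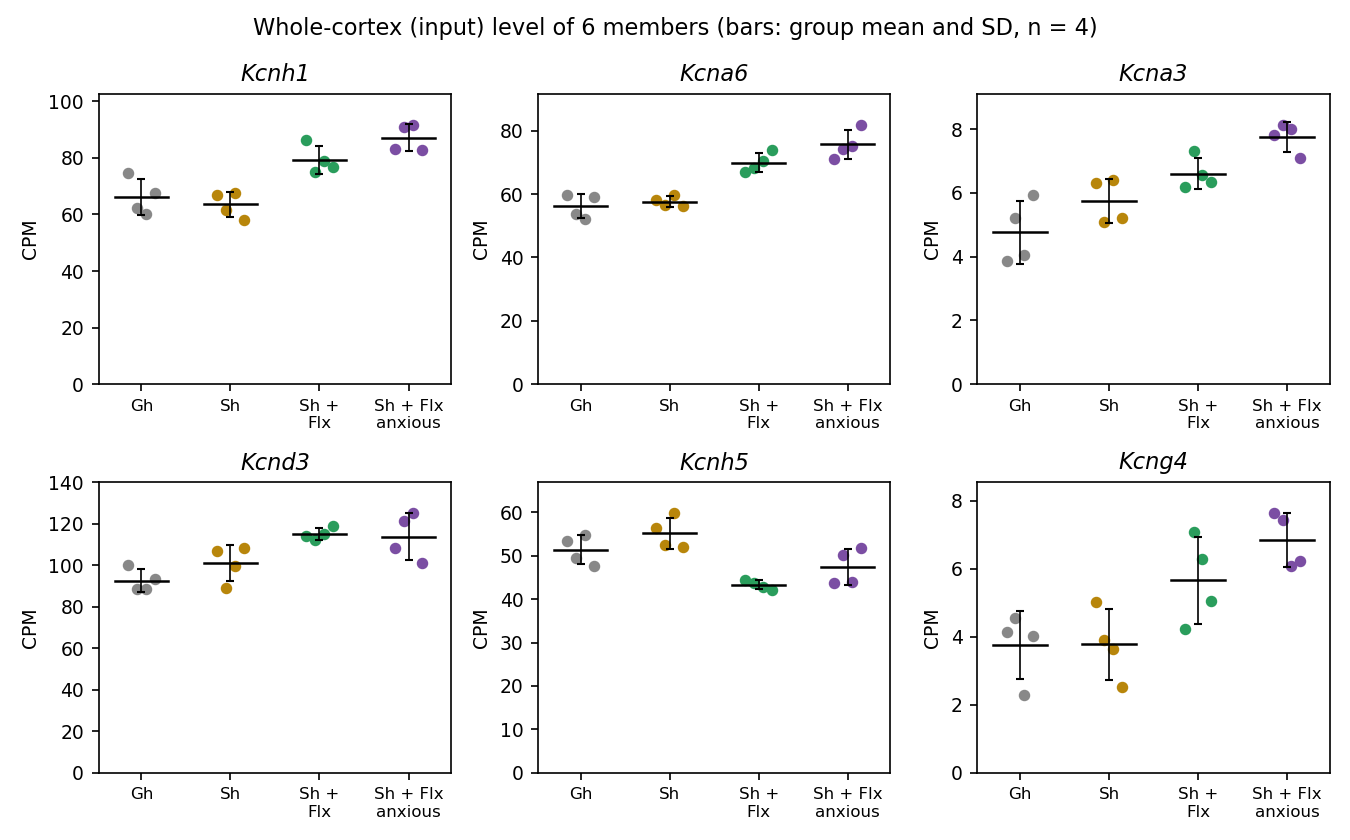
CPM of Kcnh1, Kcna6, Kcna3, Kcnd3, Kcnh5 and Kcng4 in every input library of the 4 groups (points: libraries; bars: group mean and SD, n = 4). Kcnh1 is at 58 to 74.5 CPM in Gh and Sh and at 75.1 to 91.7 CPM in both fluoxetine groups, while Kcnh5 is at 42.2 to 44.5 CPM in Sh + Flx, below its Gh and Sh libraries.

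Against Gh input, the members called were mostly higher. In Sh + Flx 6 members were higher and 0 lower, beside 3.10% of all genes higher. Kcnd3, a Kv4 gene, was at 114, 112, 115 and 119 CPM against 100, 88.4, 88.6 and 93.1 CPM in Gh input (log2 0.31, SE 0.0722, adjusted p = 0.00790). Kcna6 (log2 0.31), Kcna1 (log2 0.19), Kcnh1 (log2 0.26) and Kcnf1 (log2 0.33) had adjusted p of 0.00445, 0.0220, 0.0366 and 0.0428. Kcna1 was at 420, 392, 389 and 407 CPM against 360, 333, 353 and 367 CPM, with all libraries higher as for 5.69% of all genes. Leaving out Gh input 2, Gh input 3, Sh + Flx input 1 or Sh + Flx input 4 brought the 6 calls to 3, and summing the pairs brought them to 0, with 12 members at an unadjusted p under 0.05.

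In Sh + Flx anxious 9 members were higher than in Gh input and 1 lower, beside 6.21% and 5.27% of all genes. Among the higher genes were Kcna6 (log2 0.43, SE 0.0676, adjusted p = 5.28e-05), Kcnh1 (0.40), Kcna3 (0.70), Kcng4 (0.86), Kcnd3 (0.29), Kcnh2 (0.61) and Kcnc4 (0.31). Kcna3, a Kv1 gene, was at 7.82, 8.14, 8.01 and 7.09 CPM against 3.85, 5.2, 4.05 and 5.95 CPM in Gh input (adjusted p = 0.00241). Kcng2 was lower (log2 -1.20, adjusted p = 0.0201). In 12 members every Sh + Flx anxious library was above every Gh library, as in 6.99% of all genes, and 0 members were below. Leaving out Gh input 2 or Sh + Flx anxious input 2 brought the 10 calls to 6, as did summing the pairs. Between Sh + Flx anxious and Sh + Flx input 0 members were called (0.127% of genes), with 0 members by DESeq2 and the smallest p for Kcna4 (log2 -0.27, adjusted p = 0.404), Kcnh6 (log2 0.73, adjusted p = 0.414) and Kcnf1 (log2 -0.25, adjusted p = 0.442).

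Marker RNA of other cells also differed between these input libraries. The summed interneuron markers were at 1373 to 1470 CPM in Gh, 1412 to 1493 in Sh, 1673 to 1761 in Sh + Flx and 1670 to 1729 CPM in Sh + Flx anxious. The summed oligodendrocyte markers were at 1974 to 2255, 1832 to 2160, 1548 to 1609 and 1252 to 1519 CPM in the same order, and 7 of their 8 genes were lower in Sh + Flx anxious than in Gh. The summed meningeal fibroblast markers were at 89.4 to 122, 89.1 to 112, 64.2 to 91.7 and 49.7 to 67.2 CPM. The part of these cells in the members' differences was not tested.

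Auxiliary genes that bind Kv4 channels also passed the test in these input libraries. Kcnip3 was higher in Sh + Flx than in Sh (log2 0.53, SE 0.0641, adjusted p = 6.63e-06) and in Sh + Flx anxious than in Sh (log2 0.80, SE 0.0642, adjusted p = 1.68e-09). Kcnip2, another Kv4-binding calcium sensor, was lower in both (log2 -0.44 and -0.51, adjusted p = 0.00100 and 5.73e-05), as was Ank3 (log2 -0.18 and -0.27). In all, 3 of 22 tested auxiliary genes were higher and 4 lower in Sh + Flx anxious than in Gh input. Of 29 other potassium channel pore genes 3 were higher and 2 lower, beside 6.21% and 5.27% of all genes.

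The change in TRAP was also set against the change in input in 1 fit, which asks whether a condition moved the ribosome-bound RNA more than the RNA of the whole cortex. For Sh against Gh 0 members were called (0.0235% of genes), with 2190 genes at an unadjusted p under 0.05 and 0 members by DESeq2. Without Sh TRAP 2 and 3, 1 member was lower, beside 0.271% of genes: Kcng3, a Kv6 modifier, with a log2 difference of changes of -1.47 (adjusted p = 0.0149) and levels of 3.52 and 4.68 CPM in Sh TRAP 1 and 4 against 9.93, 7.45 and 13.8 CPM in Gh TRAP. That call rests on 2 Sh TRAP libraries that are closely alike, as does the next one for this gene.

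For Sh + Flx against Sh 1 member was called lower, beside 2.11% of all genes, and 0 without Sh TRAP 2 and 3. For Sh + Flx anxious against Sh 2 members were lower, beside 5.17% of all genes. Neither was called without these 2 libraries, and the 1 member then called was Kcng3, higher by 1.09 (adjusted p = 0.0280), beside 2.12% of genes higher. Kcng3 was at 10.3, 8.06, 8.13 and 5.69 CPM in Sh + Flx anxious TRAP, above Sh TRAP 1 and 4 and below Sh TRAP 2 and 3 at 13.1 and 30.7 CPM.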

How the data were processed

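Count tables of 32 libraries, one per library, were used as the authors deposited them: raw counts per gene, made by the authors from paired reads aligned with TopHat2 2.0.11 to mm10. The library kit keeps no strand, and no source used here gave the counting program. The 5 summary lines of each table carry no gene name and did not enter any fit; reads outside features made up 25.229% to 58.641% of the counts. The pooled tables of the series hold the authors' own mean FPKM per group, fold changes and p-values and were not used here.

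Libraries were grouped by their labels. The counts of Gh TRAP 2 and 3 were summed. edgeR 4.0.16 (R 4.3.3, TMM scaling, filterByExpr, quasi-likelihood test, Benjamini-Hochberg adjustment over all genes tested, adjusted p under 0.05) was fitted to all 31 libraries (17015 genes), the 15 TRAP libraries (16754) and the 16 input libraries (15690). Printed CPM are TMM-scaled in the first fit. The fit was checked on simulated counts. CPM per kb used the union of RefSeq exons; GENCODE lengths were added after the data were seen. DESeq2 1.42.0, RLE scaling, no filter, a replicate block, fewer groups and libraries left out were the alternatives. A term for libraries 1 and 4, and input libraries summed in pairs, were added after the data were seen.

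Members and lists were chosen with earlier results of these data known. By rule, library values were given for up to 10 called members each way for TRAP against input in Gh, up to 5 in each other comparison (3 where none passed) and the 5 highest per kb. Kcna3, Kcng3, Kcnd1 and others named for their place in a family were chosen after their values were seen. Some members enter the counts and are not reported here by name. Promoter sequences came from RefSeq (GRCm38.p6).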

Additional observations from a re-analysis of the deposited data

Results flagged for a closer look

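In 5 of 168 sets of 4 libraries tested, the highest or lowest library lay far from the other 3 by Dixon's criterion, where chance alone gives about 1 in 20. Kcnc2 was at 54.0 CPM in Sh + Flx anxious TRAP 3, above the others at 51.0 CPM and more. Kcnh4 was at 6.89 CPM in Sh + Flx input 3, where the lowest library of the group was at 3.64 CPM. Kcnh7 was at 114 CPM in Sh input 4, below the others at up to 122 CPM, and Kcnq5 at 134 CPM in Sh input 2, below the others at up to 153 CPM. S100a10 was at 60.6 CPM in Sh + Flx anxious TRAP 1, below the others at up to 68.4 CPM.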

How the results depend on the processing

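No called member changed direction under any alternative: in the repeated tests of called members 1904 values passed again and 232 did not. For TRAP against input in Gh, 23 members were called and the alternatives gave 17 to 27, with 19 to 22 when each library was left out in turn. RLE scaling gave 1 higher and 19 lower. For the mean of the 4 groups, 32 were called, and 31 to 34 with a library left out. For Sh + Flx against Sh (4 called) DESeq2 called 10, a fit on only the groups compared 0, the fit without Sh TRAP 2 and 3 gave 0, and leaving out 1 library gave 0 to 13. For Sh + Flx anxious against Sh (4 called) these were 7, 0, 0 and 1 to 12. Leaving out Sh TRAP 1 or 4 gave 11 to 13 calls in these comparisons, and leaving out any other single library of the groups gave 0 to 2. For Sh + Flx anxious against Gh in TRAP (0 called) the fit without the 2 libraries gave 1. For the change in TRAP minus that in input, Sh against Gh (0 called) gave 1 without the 2 libraries. Sh + Flx against Sh (1 called) gave 3 by DESeq2, 2 with Gh TRAP 2 and 3 separate, 0 on only the groups compared, 0 without the 2 libraries and 0 to 14 with 1 left out. Sh + Flx anxious against Sh (2 called) gave 0, 1 and 0 to 13 for the last 3. In input, Sh + Flx against Sh (3 called) gave 5 on only the groups compared and 1 to 3 with 1 library left out (1 without Sh input 2 or 4), Sh + Flx against Gh (6 called) 3 to 7 (3 without Gh input 2 or 3 or Sh + Flx input 1 or 4), Sh + Flx anxious against Gh (10 called) 6 to 11 (6 without Gh input 2 or Sh + Flx anxious input 2) and Sh + Flx anxious against Sh (6 called) 5 to 7. Sh against Gh in TRAP and input, Sh + Flx against Gh in TRAP and both comparisons of Sh + Flx anxious with Sh + Flx gave 0 calls in every alternative. The cause of these shifts was not tested.

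Over all genes kept, the correlations of same-numbered libraries were -0.0244 to 0.0402 between TRAP and input of 1 group. Between TRAP groups 2 of 24 and between input groups 0 of 24 were over 0.1. They weigh all genes alike and cannot exclude that same-numbered libraries were paired. In Sh + Flx anxious TRAP 1 to 4 summed astrocyte markers were at 1672, 2674, 2664 and 1936 CPM. The input libraries were at 3129, 4515, 4238 and 2956 CPM. In Sh + Flx, libraries 1 and 4 were above 2 and 3 in both fractions. In Sh they were above in input and below in TRAP, and Gh TRAP ran from 1973 to 2145 CPM. The main fits did not pair the fractions. With the replicate block, the TRAP calls went from 4 to 1 for Sh + Flx against Sh and from 4 to 2 for Sh + Flx anxious against Sh, the calls of the difference of changes from 1 to 0 and from 2 to 0, and those of TRAP against input in Gh from 23 to 26. Per-kb levels depend on the exon model: Kcna2 in Gh TRAP was at 28.7 CPM per kb, or at 32.4 with the longest transcript. Because input libraries 1 and 4, and 2 and 3, lay closest in every group, 2 fits were added after the data were seen. A term for libraries 1 and 4 against 2 and 3 gave 17 calls for TRAP against input in Gh, 1 for Sh + Flx against Sh and 2 for Sh + Flx anxious against Sh in TRAP, and 0 to 10 in input (10 for Sh + Flx anxious against Gh). This term allows 1 shift for all groups of a fraction. Summed astrocyte markers were at 3653 and 3814 CPM in Gh input 1 and 4, above 2655 and 2784 CPM in 2 and 3. Sh and Sh + Flx input went the same way. In Sh + Flx anxious input they were at 3129 and 2956 CPM in 1 and 4, below 4515 and 4238 CPM in 2 and 3. A shared shift cannot take up opposite differences, so these counts do not settle how the pairs matter. Summing these pairs in input left 0 calls for Sh + Flx against Sh, 3 for Sh + Flx anxious against Sh, 0 for Sh + Flx against Gh and 6 for Sh + Flx anxious against Gh, in a fit with 2 samples per group. Apart from Gh TRAP 2 and 3, pairs were not summed in TRAP. Members under 1 CPM, such as Kcnq1, have too few counts for small differences to be seen.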
